A study of Mus musculus with 6 samples.

Results

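The carboxylesterases described here are 10 genes, Ces1c, Ces1d, Ces1e, Ces1f, Ces1g, Ces2a, Ces2c, Ces2e, Ces3a and Ces3b. They were chosen by gene name among the 55450 genes of the count files, and all 10 were among the 17037 genes tested, those that reached 10 counts in 3 or more libraries. The study compared primary hepatocytes from undamaged liver (0 h) with hepatocytes taken 48 h after partial hepatectomy (PHx), in which most of the liver is cut away, and 3 bulk RNA-Seq libraries were made at each time point. All mice were male C57BL/6 (C57BL/6J in the study's methods) on a normal diet, given as 10 to 12 weeks old in the sample labels and as slightly younger in the study's methods. They carried no transgene or deletion, and the 0 h mice had no sham operation, so 48 h differs from 0 h by the surgery as well as by the loss of liver mass. Hepatocytes were set free by a collagenase perfusion of the liver, with no sort for a surface marker, and total RNA was sequenced.

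Carboxylesterases are serine hydrolases that cut ester, thioester and amide bonds. Most of the liver enzymes stay in the lumen of the endoplasmic reticulum, where they activate or inactivate ester drugs and hydrolyze triglycerides, cholesteryl esters and retinyl esters, and some are secreted into plasma. Mice carry many more Ces1, Ces2 and Ces3 genes than humans, in tandem arrays of close copies.

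Counts on genes summed to 31419443 to 36346220 per library, and 3 counts, taken as the floor of a library, were worth 0.0839 to 0.102 CPM (counts scaled to a common library size with TMM factors). No 2 libraries of a time point were alike within counting noise. Of 12 hepatocyte markers, all were detected, and their summed level was 113854 to 132410 CPM at 0 h and 75520 to 92574 CPM at 48 h, with 4 markers lower (Cyp2e1, Ttr, Alb and Apoa1), 1 higher (Fgb) and 7 that did not pass the test. The summed endothelial markers lay at 198 to 307 CPM at 0 h and 141 to 155 CPM at 48 h, with 8 of 8 lower, and the summed Kupffer cell markers at 68.6 to 105 CPM and 98.4 to 124 CPM, with 2 of 9 higher. Red cell markers summed to 55.9 to 86.6 CPM at 0 h and 18.7 to 40.4 CPM at 48 h, nearly all of it from Alas2 (55.6 to 86.3 CPM and 18.6 to 40.2 CPM), the 1 of 6 tested, which was lower, with Hbb-bt at 0. The stellate cell markers (71.8 to 115 CPM and 63.3 to 75.9 CPM) and cholangiocyte markers (9.15 to 20.7 CPM and 16.3 to 26.0 CPM) overlapped between the time points in their sums. Of 7 stellate markers tested, Col1a1 was higher (log2 fold change 2.30, adjusted p = 4.58e-05) and Reln lower (−0.82, adjusted p = 0.00752), and of 2 cholangiocyte markers tested, Spp1 was higher (1.51, adjusted p = 0.0212). The 8 lymphocyte markers summed to 2.92 to 4.29 CPM and 1.60 to 2.32 CPM, most of it from Cd4, the 1 tested and lower, while Cd79a had at most 0.0681 CPM at 0 h and 0.0891 to 0.224 CPM at 48 h. Neutrophil markers, none of which could be tested, summed to 0.0904 to 0.409 CPM at 0 h and 0.653 to 1.06 CPM at 48 h without overlap, with Mpo and Ltf at 0. Adipocyte markers stood at 0.0645 to 0.136 CPM and 0.0297 to 0.228 CPM with Lep at 0. The part of these lists in the results on carboxylesterases was not tested, and in bulk RNA fewer hepatocytes and less RNA per hepatocyte cannot be told apart. From its own deconvolution of its bulk RNA-Seq data, the study reported that nearly all cells of each replicate were hepatocytes.

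The 10 genes lie in a pair of clusters on chromosome 8 (GRCm38, mm10). The 5 Ces1 genes lie on the minus strand at chr8:93099015-93337308, and the Ces2 and Ces3 genes on the plus strand at chr8:104734003-105093929. Coding sequences were 74.6 to 95.3% identical within a subfamily (14 pairs) and 62.3 to 65.9% identical between subfamilies (31 pairs). The closest members were Ces3a (chr8:105048601-105058413) and Ces3b (chr8:105083753-105093929), at 95.3% of coding bases. Ces1c (chr8:93099015-93131283) was 91.1% identical to its neighbor Ces1b (chr8:93056728-93080017), and Ces2c (chr8:104847068-104854483) 92.1% identical to Ces2b, both of which are family genes outside the 10.

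Such similarity limits which reads can be placed. Of the 50-base windows in its transcripts, Ces2c shared 36.1% with other genes (32.7% with the pseudogene Ces2d-ps), Ces3b 26.2% and Ces3a 25.6% (each with the other), Ces2a 17.3% (16.3% with Gm7208) and Ces1c 13.0% (8.18% with Ces1b). The remaining 5 members shared 0.903 to 3.30%. With 100-base windows the shares were 13.6% for Ces2c, 8.13% for Ces2a, 7.04% for Ces3b, 6.88% for Ces3a, 1.03% for Ces1c and 0% for the others. The files hold 0 multiply aligned reads, so the levels of Ces2c, Ces3a, Ces3b, Ces2a and Ces1c are uncertain to the extent of these shares. Counts summed over Ces3a and Ces3b, which are also tested, do not depend on how reads were divided between these genes, while sums over the Ces1 or Ces2 members still depend on the division with genes outside the 10. Except for 0.0381% of Ces3a, covered by Gm45724 on the opposite strand, no exon base of a member overlapped another gene.

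Promoters of 7 of the 10 genes were matched in RefSeq (GRCm38.p6), from 250 bases before to 50 bases after the annotated start; Ces1d, Ces1f and Ces3a were not. The promoters of Ces1b and Ces1c are shown because these neighbors had similar promoter letters and different changes from 0 h to 48 h. In their alignment, 253 of 273 aligned bases were identical (92.7%), and capitals mark the 47 bases of each that had no identical partner. RefSeq lists 2 starts for Ces1b, and the first listed was used. The window of the other, chr8:93079968-93080267, whose start is the one in the gene annotation, had 185 of 197 aligned bases identical to Ces1c (93.9%). The Ces3b promoter is shown because Ces3b had the largest decrease of the 10, and its capitals mark TATAAA.
Ces1b, chr8:93079891-93080190, minus strand: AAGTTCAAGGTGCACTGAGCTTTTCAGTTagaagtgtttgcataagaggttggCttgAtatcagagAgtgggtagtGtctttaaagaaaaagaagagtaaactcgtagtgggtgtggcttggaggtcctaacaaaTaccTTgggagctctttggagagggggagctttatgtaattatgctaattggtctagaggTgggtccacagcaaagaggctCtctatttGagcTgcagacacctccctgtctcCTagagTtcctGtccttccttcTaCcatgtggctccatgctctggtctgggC
Ces1c, chr8:93131234-93131533, minus strand: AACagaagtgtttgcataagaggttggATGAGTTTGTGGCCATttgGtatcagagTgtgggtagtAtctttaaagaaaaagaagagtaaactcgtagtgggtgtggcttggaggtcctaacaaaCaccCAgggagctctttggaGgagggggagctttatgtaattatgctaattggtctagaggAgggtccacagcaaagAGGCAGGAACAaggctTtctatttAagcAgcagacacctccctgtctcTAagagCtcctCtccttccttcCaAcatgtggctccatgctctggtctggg
Ces3b, chr8:105083505-105083804, plus strand: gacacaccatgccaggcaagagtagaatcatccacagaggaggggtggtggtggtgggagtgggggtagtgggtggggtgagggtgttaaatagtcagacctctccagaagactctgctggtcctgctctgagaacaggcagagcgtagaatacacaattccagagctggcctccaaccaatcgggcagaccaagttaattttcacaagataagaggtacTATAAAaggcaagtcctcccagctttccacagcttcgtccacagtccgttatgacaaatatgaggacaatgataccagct

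Motif letters were searched on both strands of these windows. CCAAT was in 5 of the 7 promoters (Ces1c, Ces1g, Ces2a, Ces2c and Ces3b) and in 37.4% of all 32851 RefSeq promoters. TATAAA was in 2 (Ces1g and Ces3b) and in 13.6% of all. AGGTCA, letters bound by several nuclear receptors, was in Ces2a alone (16.3% of all), and GTTAAT, part of the HNF1 motif, in Ces3b alone (7.10% of all). TTGCGCAA (0.183% of all) and TGACNNNGC (12.4% of all) were in none of the 7. The Ces1e and Ces2e promoters held none of the 6 motifs.

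At 0 h, carboxylesterase mRNAs were among the abundant mRNAs of these hepatocytes. On the scale of CPM per kb of exon, which allows levels of different genes to be compared, Ces3a had 1052 ± 78.3 (SD, n = 3) and Ces1c 873 ± 113, at places 42 and 54 among all genes. Ces3b (296 ± 20.7) and Ces1d (248 ± 40.9) followed, then Ces1f (138 ± 21.5), Ces2a (135 ± 5.59), Ces1g (117 ± 19.6), Ces1e (80.6 ± 4.55), Ces2e (61.7 ± 9.96) and Ces2c (31.01 ± 6.29). The libraries of neighbors in this order overlapped for Ces3a and Ces1c, Ces3b and Ces1d, Ces1f and Ces2a, and Ces2a and Ces1g. The other neighbors did not overlap. At 48 h the order was Ces1c, Ces3a, Ces1g, Ces1d, Ces3b, Ces2a, Ces1f, Ces2e, Ces2c and Ces1e. There the 6 genes from Ces1g to Ces2e lay at 34.1 to 51.6 CPM per kb, each overlapping its neighbor, and Ces1e, with 11.1 ± 3.26, overlapped Ces2c.

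All 10 carboxylesterases were lower at 48 h after PHx than at 0 h. Each passed edgeR's quasi-likelihood test at a Benjamini-Hochberg adjusted p under 0.05, with the 3 libraries at 48 h below the 3 at 0 h in each gene. Among all genes tested, 40.7% passed in either direction, 19.3% as lower and 21.4% as higher, and in 25% all libraries at 48 h lay below all at 0 h. Of the 7564 genes whose mean reached 10 CPM, a range that holds all 10 members, 23.8% were lower. The decrease was at least 2-fold for 8 of the 10, while 7.94% of all genes tested passed with such a decrease. The median log2 fold change was −1.93 over the 10 and −0.00326 over all genes tested. The summed hepatocyte markers were also lower in every library at 48 h than in any at 0 h. Alb weighs most in this sum, with a mean of 63557 CPM at 0 h and 35066 CPM at 48 h. By the test, 4 of the 12 markers were lower, 1 (Fgb) was higher and the rest did not pass. The part of these markers in the decreases of the 10 genes was not tested.

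**Figure D1:**
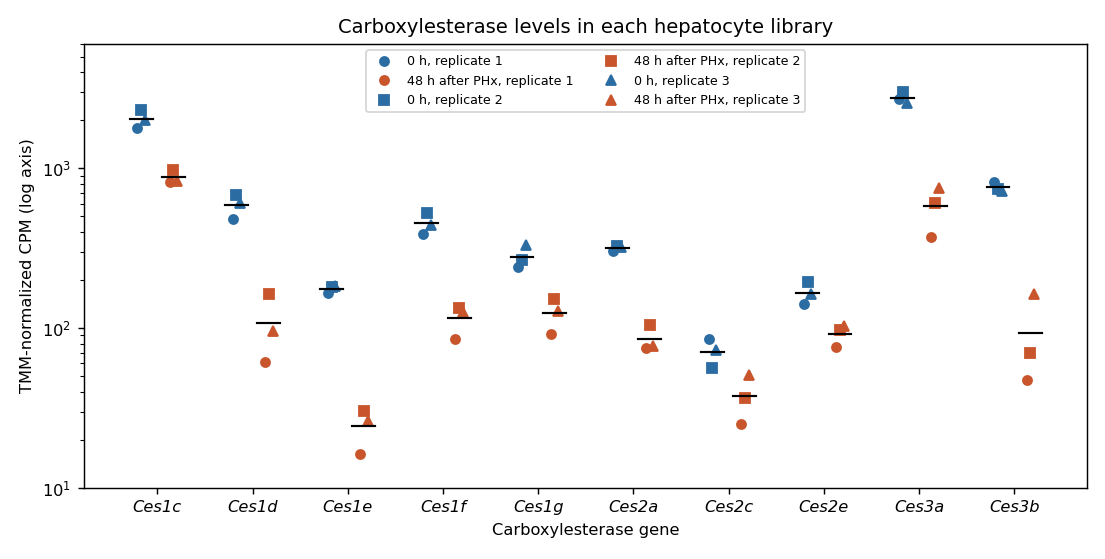
TMM-normalized CPM (log axis) of each carboxylesterase in the 3 libraries at 0 h (blue) and the 3 at 48 h after PHx (orange); circles, squares and triangles are replicates 1, 2 and 3, and black lines the means. In each of the 10 genes the 3 libraries at 48 h lie below the 3 at 0 h, and replicate 1 is the lowest at 48 h.

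Ces3a and Ces3b encode a pair of closely related esterases that are made mainly by the liver. Ces3b had 819.9, 742 and 718 CPM at 0 h in replicates 1, 2 and 3, and 47.2, 69.8 and 163 CPM at 48 h. The highest library at 48 h thus stood far below the lowest at 0 h, although the 3 libraries at 48 h differed among themselves by 3.46-fold. The mean fell from 760.2 ± 53.1 to 93.4 ± 61.5 CPM, a log2 fold change of −3.02 (SE 0.382, adjusted p = 0.000152), and 74 of the 17037 genes tested had a lower one. Without replicate 3 of 48 h the log2 fold change of Ces3b was −3.71, the lowest value under any alternative.

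Ces3a, the most abundant member at 0 h, had 2732, 2983 and 2575 CPM there and 372, 602 and 757 CPM at 48 h. Its libraries at 48 h were all below the 0 h libraries by more than either group's spread. The mean fell from 2764 ± 206 to 577 ± 194 CPM (log2 fold change −2.26, SE 0.239, adjusted p = 4.62e-05). The counts of Ces3b per count of Ces3a were 0.3001, 0.249 and 0.279 at 0 h and 0.127, 0.116 and 0.216 at 48 h. Relative to Ces3a, Ces3b was thus lower in each library at 48 h than in any at 0 h.

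In the Ces1 subfamily, Ces1e, Ces1d and Ces1f had the larger decreases and Ces1c and Ces1g the smaller ones. Ces1e, known as egasyn, holds part of the cell's beta-glucuronidase in the endoplasmic reticulum. It had 165, 180.2 and 184 CPM at 0 h and 16.4, 30.2 and 26.2 CPM at 48 h. Its libraries were tight at 0 h, and its level at 48 h was 13.8% of that at 0 h (log2 fold change −2.86, SE 0.201, adjusted p = 2.45e-06). Gusb, the gene of beta-glucuronidase itself, had a log2 fold change of 0.04 (adjusted p = 0.815).

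Ces1d, also called triacylglycerol hydrolase, releases stored lipid for the assembly of very low density lipoprotein (VLDL). It had 484, 676 and 604 CPM at 0 h and 60.9, 164 and 96.4 CPM at 48 h. The libraries at 48 h were well below those at 0 h but unequal, with replicate 2 at 2.69 times replicate 1. The log2 fold change was −2.46 (SE 0.308, adjusted p = 0.000143), and it was −2.92 without replicate 2 of 48 h.

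Ces1f, another lipid hydrolase of the hepatocyte, had 386, 527 and 443 CPM at 0 h and 85.5, 134 and 127 CPM at 48 h. Its mean fell from 452 ± 70.5 to 115 ± 26.1 CPM (log2 fold change −1.97, SE 0.190, adjusted p = 2.45e-05). Ces1g, which hydrolyzes triglycerides and cholesteryl esters, had 242, 267 and 333 CPM at 0 h and 91.7, 151 and 127 CPM at 48 h. It fell from 280.4 ± 46.8 to 123 ± 29.9 CPM (log2 fold change −1.18, SE 0.189, adjusted p = 0.000689).

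Ces1c, the carboxylesterase of mouse plasma, had 1779, 2301 and 2001 CPM at 0 h and 827, 982 and 838 CPM at 48 h. The 48 h libraries lay close together, with a coefficient of variation of 9.82%, the smallest of the 10 at that time. Its mean fell from 2027 ± 262 to 882 ± 86.6 CPM (log2 fold change −1.20, SE 0.156, adjusted p = 0.000179). At 48 h it was the most abundant carboxylesterase on the scale of CPM per kb, with 379.7 ± 37.3 against 219.7 ± 73.8 for Ces3a, and the libraries of these genes did not overlap.

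The Ces2 genes encode esterases that prefer substrates with a small acyl and a large alcohol group and include lipases acting on diglycerides and triglycerides. Ces2a had 303, 328 and 323 CPM at 0 h and 75.2, 105 and 76.8 CPM at 48 h. The spread was smaller at 0 h (coefficient of variation 4.14%) than at 48 h (19.4%), and the mean fell from 318 ± 13.2 to 85.6 ± 16.6 CPM (log2 fold change −1.89, SE 0.150, adjusted p = 5.84e-06). Ces2c, a triglyceride lipase, had 84.9, 56.1 and 72.8 CPM at 0 h and 25.1, 36.3 and 50.5 CPM at 48 h. Its groups came close to each other, and it had the weakest test of the 10 (log2 fold change −0.93, SE 0.229, adjusted p = 0.00836).

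Ces2e, known as a pyrethroid-hydrolyzing esterase, had 141, 195 and 164 CPM at 0 h and 75.6, 97.3 and 104 CPM at 48 h. It kept 55.4% of its 0 h level, the largest part of the 10 (log2 fold change −0.85, SE 0.156, adjusted p = 0.00160). With the counts of the members of a subfamily (of the 10 only) summed into 1 gene and all genes refitted, the log2 fold change was −1.49 for Ces1 (SE 0.174, adjusted p = 8.89e-05), −1.37 for Ces2 (SE 0.145, adjusted p = 4.66e-05) and −2.39 for Ces3 (SE 0.256, adjusted p = 4.99e-05). Differences between the subfamilies were not tested.

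Replicate 1 was the lowest at 48 h for all 10 members, replicate 2 the highest for the 5 Ces1 genes and Ces2a, and replicate 3 the highest for Ces2c, Ces2e, Ces3a and Ces3b. The members share these libraries, so these places are not independent between genes. The coefficient of variation ran from 4.14% (Ces2a) to 20.3% (Ces2c) at 0 h and from 9.82% (Ces1c) to 65.9% (Ces3b) at 48 h.

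Together the 10 genes took 0.667, 0.784 and 0.678% of all gene counts at 0 h and 0.171, 0.260 and 0.261% at 48 h. This is a mean of 0.710 ± 0.0647% (SD, n = 3) against 0.231 ± 0.0520%, 3.08 times lower at 48 h, with no overlap (exact permutation test, two-sided, p = 0.1, the smallest value that 3 against 3 libraries allow).

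The make-up of these counts also differed between the time points. The share of Ces1c in the summed counts of the 10 was 24.9, 27.9 and 27.0% at 0 h and 49.3, 41.4 and 35.4% at 48 h. Every library at 48 h had a larger part of its carboxylesterase counts on Ces1c than any at 0 h. Ces3a took 36.4 ± 1.79% at 0 h and 26.5 ± 5.01% at 48 h, Ces3b 10.1 ± 1.29% and 4.22 ± 2.32%, and Ces1e 2.33 ± 0.149% and 1.12 ± 0.150%, all without overlap. The mean shares of Ces1g (3.70% at 0 h and 5.74% at 48 h) and Ces2e (2.18% and 4.33%) were larger at 48 h, also without overlap. The share of Ces2c was 0.680 to 1.19% at 0 h and 1.497 to 2.14% at 48 h. Those of Ces1d, Ces1f and Ces2a overlapped. The exact permutation test gave p = 0.1 for each of the 7 shares that did not overlap (0.143 after Benjamini-Hochberg adjustment over the 10), so none could pass a threshold of 0.05 in a design of this size.

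**Figure D2:**
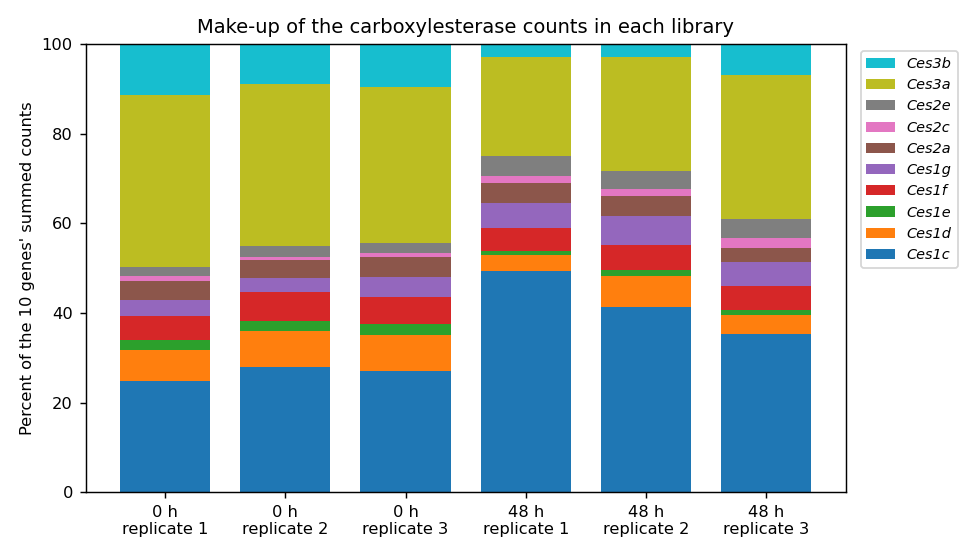
Percent of the summed counts of the 10 carboxylesterases that fell on each gene (stacked bars, 1 bar per library, linear axis from 0 to 100%). Ces1c, at the bottom, takes 24.9 to 27.9% at 0 h and 35.4 to 49.3% at 48 h after PHx, and Ces3b, at the top, 8.99 to 11.5% and 2.82 to 6.90%.

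The family has 10 further genes in this annotation, of which 6 could be tested. Ces1b, the neighbor of Ces1c, had 1692, 2135 and 2305 counts at 0 h and 2004, 2617 and 2265 at 48 h. Its libraries overlapped throughout, at 65.3 ± 6.66 and 65.8 ± 6.91 CPM (log2 fold change 0.01, SE 0.119, adjusted p = 0.948). For each count of Ces1b there were 30.9, 33.4 and 28.8 counts of Ces1c at 0 h and 13.9, 13.4 and 13.0 at 48 h. The promoters of these genes are those printed above. Ces2g fell by 0.33 on the log2 scale (adjusted p = 0.0270), from 78.1 ± 5.81 to 61.9 ± 3.90 CPM, and this call was lost when counts were scaled by library size only (log2 fold change −0.13, adjusted p = 0.393) and without replicate 3 of 0 h, replicate 1 of 48 h or replicate 3 of 48 h (adjusted p = 0.102, 0.0770 and 0.0531).

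The other 4 family genes tested were at low levels. Ces4a had 194, 141 and 105 counts at 0 h and 18, 19 and 63 at 48 h (log2 fold change −2.31, SE 0.449, adjusted p = 0.00226, and −3.16 without replicate 3 of 48 h). Ces2b had 151, 61 and 45 counts at 0 h and 2, 1 and 6 at 48 h (adjusted p = 0.000254), a summed level 31.9 times lower at 48 h (95% interval for counting error 16.5 to 70.5). Its fitted log2 fold change of −4.97 was −4.21 without replicate 1 of 0 h and −5.91 without replicate 3 of 48 h. Ces2h had 14, 11 and 22 counts at 0 h and 3, 3 and 5 at 48 h (adjusted p = 0.00306), 4.77 times lower (interval 2.44 to 10.2). All 3 thus had less at 48 h in each library, as the 10 members had.

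Ces1a was the 1 family gene that rose, with 4, 3 and 2 counts at 0 h and 35, 41 and 36 at 48 h (adjusted p = 6.51e-05). Its summed level was 11.2 times higher at 48 h (interval 5.67 to 25.02), but reached 1.07 ± 0.0655 CPM, and 18.1% of its exon bases are covered by Gm45463 on the opposite strand. Ces1h, Ces2d-ps and Ces2f had 0 to 4 counts in each library and Ces5a had 0 in all. Ces2c, which shares windows with Ces2d-ps, had 845 to 2494 counts in the same libraries.

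**Figure D3:**
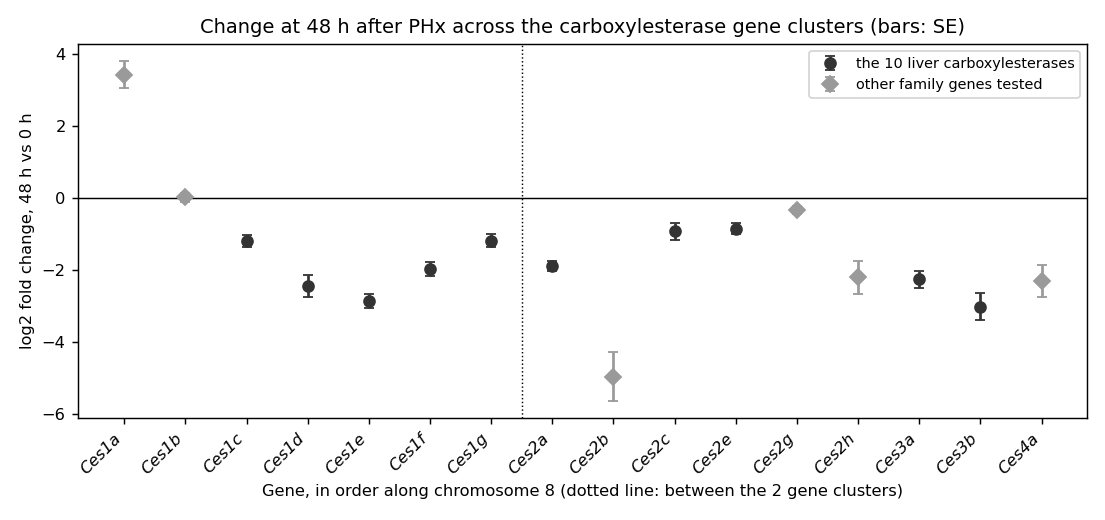
Log2 fold change at 48 h against 0 h (points, with SE bars) of the 16 carboxylesterase family genes tested, in their order along chromosome 8; dark circles are the 10 members and gray diamonds the other 6. The members lie between −3.02 (Ces3b) and −0.85 (Ces2e), while Ces1a (3.42) and Ces1b (0.01), next to Ces1c, do not lie below 0.

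Of 59 other genes within a cluster or 250 kb of it, family genes left out, 25 could be tested, with 6 lower, 4 higher and 15 that did not pass, beside 19.3% lower and 21.4% higher over all genes tested, and a median log2 fold change of −0.13. Nol3 (2.09, adjusted p = 0.00126), an inhibitor of apoptosis, and Cbfb (1.33, adjusted p = 3.06e-05), the partner of RUNX transcription factors, were higher. The unnamed loci Gm45727 (−1.62, adjusted p = 0.0149) and Gm45724 (−1.49, adjusted p = 0.0417) were lower. Gm45724 lies opposite Ces3a and had 164, 221 and 88 counts at 0 h and 24, 41 and 125 at 48 h, so its time points overlapped. Its call was lost with library size scaling (adjusted p = 0.0729), with DESeq2 (adjusted p = 0.106) and without replicate 1 or 2 of 0 h or replicate 1 or 2 of 48 h (adjusted p = 0.0950 to 0.146), and its log2 fold change was −2.46 without replicate 3 of 48 h. The call on Gm45727 was lost without replicate 2 of 0 h (adjusted p = 0.0526).

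The liver holds other esterases and lipases beside the Ces enzymes. Of 28 tested of 29 genes on this list, 11 were lower, 2 higher and 15 did not pass, with a median log2 fold change of −0.15. Beside this, 19.3% of all genes tested were lower and 21.4% higher. The list also held Bdh1, a dehydrogenase gene, which did not pass (−0.14, adjusted p = 0.615) and is counted here. Lipc, hepatic lipase, had 116, 127 and 129 CPM at 0 h and 28.4, 36.1 and 38.6 CPM at 48 h, a decrease of the same order as that of the Ces genes (log2 fold change −1.85, SE 0.132, adjusted p = 2.68e-06). Pon1, the paraoxonase carried on high density lipoprotein, fell from 410.4 ± 51.9 to 167 ± 25.7 CPM (−1.29, adjusted p = 9.67e-05), and Pon3 by 0.33 on the log2 scale (adjusted p = 0.0252). Abhd2, a lipase of the alpha/beta hydrolase fold, rose from 256 ± 29.2 to 650.5 ± 51.4 CPM (1.35, adjusted p = 3.77e-05). The call on Pon3 was lost with library size scaling (adjusted p = 0.369) and without replicate 3 of 0 h, replicate 2 of 48 h or replicate 3 of 48 h (adjusted p = 0.0827, 0.0622 and 0.0656).

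Among 13 genes of triglyceride storage and VLDL assembly, 4 were lower, 1 higher and 8 did not pass (median −0.31). Over all genes tested, 19.3% were lower and 21.4% higher. Soat2, which makes cholesteryl esters, fell from 35.9 ± 1.57 to 15.7 ± 0.945 CPM (−1.19, adjusted p = 1.17e-05). Dgat2, which makes triglycerides, fell from 458 ± 19.0 to 224 ± 29.8 CPM (−1.03, adjusted p = 0.000184). Plin5, a lipid droplet protein, fell by 0.37 on the log2 scale (adjusted p = 0.0171), and Tm6sf2, which takes part in VLDL lipidation, rose (0.87, adjusted p = 0.00273). The call on Plin5 was lost with library size scaling (adjusted p = 0.279) and without replicate 3 of 0 h or replicate 1 of 48 h (adjusted p = 0.0503 and 0.0584). The mRNAs of the hydrolase Ces1d and of the synthetic enzymes Dgat2 and Soat2 were lower at 48 h, by 5.50-, 2.05- and 2.28-fold. Dgat1, from the same list as Dgat2 and Soat2, did not pass (−0.21, adjusted p = 0.216).

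Many liver carboxylesterases are kept in the endoplasmic reticulum by receptors that return escaped proteins to it. Of 6 genes of this retrieval and of Ces1e binding, 2 were higher, 1 lower and 3 did not pass (median 0.04). The shares over all genes tested were 21.4% higher and 19.3% lower. Kdelr2, a retrieval receptor, rose (0.45, adjusted p = 0.0163), as did the low-level Kdelr3 (1.64, adjusted p = 0.00169), while the chaperone gene Hspa5 fell by 0.53 on the log2 scale (adjusted p = 0.0154). The call on Hspa5 was lost with library size scaling (adjusted p = 0.0780) and without replicate 3 of 0 h or replicate 2 of 48 h (adjusted p = 0.0607 and 0.0655), and that on Kdelr2 without replicate 1 of 0 h or replicate 1 of 48 h (adjusted p = 0.0512 and 0.0521).

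Of 14 transcription factors tied to carboxylesterase genes, 2 were lower, 1 higher and 11 did not pass (median −0.19). For comparison, 19.3% of all genes tested were lower and 21.4% higher. Stat5b, which carries the growth hormone signal, had 101, 84.7 and 104 CPM at 0 h and 45.8, 49.5 and 47.9 CPM at 48 h (−1.02, SE 0.111, adjusted p = 5.88e-05). Cebpa, a factor of hepatocyte differentiation, fell from 530.0 ± 134 to 269.8 ± 58.6 CPM (−0.97, adjusted p = 0.00449). Nfe2l2, the NRF2 gene, rose from 56.7 ± 4.66 to 93.0 ± 7.97 CPM (0.71, adjusted p = 0.000595). The xenobiotic receptor gene Nr1i2 (0.12, adjusted p = 0.459) and Hnf4a (0.23, adjusted p = 0.200) did not pass.

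**Figure D4:**
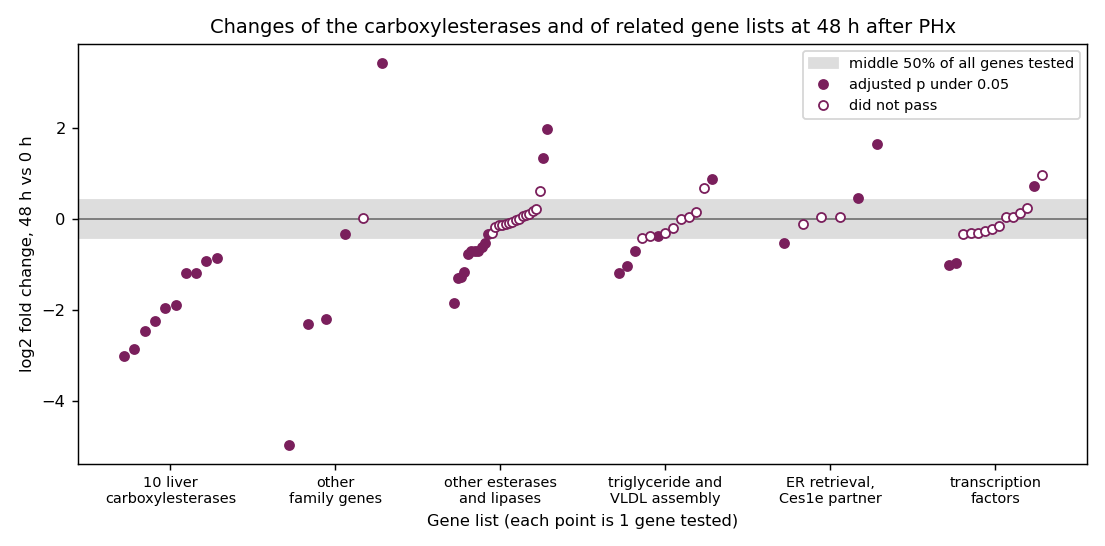
Log2 fold change at 48 h against 0 h of each gene tested in the 10 carboxylesterases and 5 related lists (filled points passed at an adjusted p under 0.05, open points did not); the gray band holds the middle 50% of all genes tested and the line their median. The 10 carboxylesterases are all below the band, while the other lists have points within and on both sides of it.

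Over the 6 libraries, the genes whose pattern was most like that of Ces3b by Pearson's r of log2 CPM, given as a description since the 6 points share 2 time points, were Cyp2u1, a fatty acid hydroxylase (r = 0.9988, 177 ± 16.2 to 44.1 ± 18.5 CPM), Elovl3, a fatty acid elongase (r = 0.9988, 358 ± 13.6 to 10.4 ± 11.1 CPM), and Lrit2 (r = 0.9980, 5.49 ± 0.151 to 0.543 ± 0.334 CPM). In all 3, as in Ces3b, replicate 1 was the lowest and replicate 3 the highest library at 48 h. Choosing genes by likeness over these same libraries favors such a shared order, so it is no separate result.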

How the data were processed

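Total RNA of 6 hepatocyte preparations, 3 per time point, was sequenced by the authors, and the deposited files hold raw read counts per gene without normalization, in the layout of htseq-count. The submitters' processing notes name FastQC 0.11.5, Trim Galore 0.6.4, STAR 2.6, HTSeq 0.12.4, DESeq2 and the build mm10; the counting mode, strand setting and annotation are not given in the sources used here. All identifiers with versions were those of GENCODE release M21, which gave gene names, positions and exon lengths. Reads on no gene (24.3 to 32.7% per library) and ambiguous reads (4.27 to 5.29%) were left out. Strand being unknown, reads of overlapping antisense genes cannot be told apart.

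Time points were compared with the quasi-likelihood test of edgeR 4.0.16 (R 4.3.3) with TMM factors, time as the only term and Benjamini-Hochberg adjustment over the 17037 genes that reached 10 counts in 3 or more libraries; a call is an adjusted p under 0.05. CPM are TMM-normalized, and the SE is the log2 fold change divided by the root of the F statistic. The test was tried on simulated counts first. Intervals for ratios of low counts are exact at 95% and, like the floor of 3 counts, cover counting error only. Coding sequences and promoters were aligned pairwise with Biopython 1.88, and shares were tested with scipy 1.17.1. Alternatives were RLE, upper quartile and library size scaling, TMM without mitochondrial genes, no filter, a filter at 50 counts, DESeq2 1.42.0, limma-voom (limma 3.58.1), a 2-fold threshold, the replicate number as a block, each library left out, shares per exon length, and a total without mitochondrial genes.

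The labels gave each library's group and replicate number, and libraries that share a number are of different mice. Named genes are the 10 members, the other family genes, from each further list the 2 genes called with the largest and the 2 with the smallest log2 fold change among those with a mean of at least 10 CPM, the 4 neighbors called with the largest changes, and the 3 genes most like the member with the largest change. Gusb, Kdelr3, Dgat1, Bdh1, Nr1i2 and Hnf4a were named after their values were seen. The members and lists were chosen with earlier results of these data known.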

Additional observations from a re-analysis of the deposited data

How the results depend on the processing

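All 10 carboxylesterases kept their direction and their call under each of the 15 alternatives with a test, the highest adjusted p being 0.0364 (Ces2c). The log2 fold changes ranged most for Ces3b (−3.71 to −2.72) and Ces1d (−2.92 to −2.19) and lay between −0.96 and −0.65 for Ces2e. The summed subfamilies also kept theirs. With a 2-fold threshold added, 8 of the 10 were called. Per exon length, the share of Ces1d no longer overlapped (8.16% at 0 h and 5.07% at 48 h). Library size scaling, which moved the median of all genes by 0.20 on the log2 scale, gave 5309 higher and 2108 lower genes against 3638 and 3288, and the cause was not tested. Adding a 2-fold threshold left 1651 higher and 1353 lower. Leaving out 1 library gave 2874 to 3451 higher and 2638 to 3223 lower genes.

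Counts in the short lists moved by 1 to 3 genes. With at least 50 counts in 3 libraries, fewer genes were tested, and the other family genes had 0 higher and 2 lower, the retrieval genes 1 higher and the transcription factors 4 lower. Upper quartile scaling also gave 4 lower transcription factors. With library size scaling, 0 retrieval genes and 3 cluster neighbors were lower and 3 transcription factors higher. Without a filter, 2 genes of VLDL assembly and 2 transcription factors were higher. The lower genes of VLDL assembly numbered 6 with DESeq2, 5 with upper quartile scaling, limma-voom or at least 50 counts, and 3 with library size scaling. Leaving out 1 library gave 1 to 2 higher and 3 to 5 lower genes of VLDL assembly. It also gave 1 to 2 higher and 0 to 1 lower retrieval genes and 1 to 2 higher transcription factors.

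The replicate numbers are shared by the time points, but same-numbered libraries did not deviate together (correlations 0.0335, −0.0674 and −0.138), and only replicate 1 correlated best with its own number. The fit with the replicate block called 3237 higher and 2884 lower genes, among them 6034 of the 6926 genes called without it. It kept the calls on all 10 carboxylesterases and lost those on Ces2g (adjusted p = 0.0525), Pon3 (0.0641) and Gm45724 (0.0518). Depth limits Ces1a, Ces2b and Ces2h, with 1 to 6 counts per library in 1 group.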
